A study of Mus musculus with 12 samples.

Results

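The comparison was between hepatocytes of mice with liver-directed deletion of Fbxl5 and those of floxed controls, all fed a standard diet. It used 6 of the 12 libraries in the series, 3 from Alb-Cre/FBXL5F/F mice and 3 from FBXL5F/F mice. Both genotypes carried the floxed alleles, so the groups differed by the Cre transgene and by what it removed. Cre was under the albumin promoter, which is active in hepatocytes. Each library came from a separate mouse, and the age and sex of the mice were not given in the sources used here. Hepatocytes were freed by perfusing the liver with collagenase in 2 steps, which can leave cells of other types in the preparation. The remaining 6 libraries came from the same genotypes after 2 weeks on 0.1% DDC, a porphyrinogenic diet that causes cholestasis. Chromatin was profiled by ATAC-seq, in which a transposase cuts accessible DNA and tags it for sequencing. What was available for each library was a list of peaks with a fold enrichment, the height of the peak over the local background of that library.

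Members were chosen by a fixed path. Peaks on chromosomes 1 to 19 and X enriched at least 5-fold were ranked, and the strongest 43981 of each library were kept, that being the number in the shortest set. Overlapping kept peaks were merged into 58902 regions, and the 44223 regions with a kept peak in at least 3 of the 6 libraries were tested. Throughout, the value of a region is the log2 fold enrichment that its rank in that library stands for, so a difference of 1 is a 2-fold difference in enrichment relative to the other regions. A change of all regions alike cannot be seen on this scale. Coordinates are those of mm10, and genes were placed with the RefSeq table of GRCm38.p6, the same assembly. The table gives gene spans without exons, so whether a region is exonic or intronic was not determined.

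FBXL5 is an iron-sensing F-box protein. When iron is plentiful it directs the iron regulatory protein IRP2 to degradation. IRP2, encoded by Ireb2, and IRP1, encoded by Aco1, act after transcription: they bind hairpins in messenger RNAs, which stabilises the transferrin receptor message and blocks translation of ferritin and ferroportin. Loss of FBXL5 in the liver is known to leave IRP2 active and to load hepatocytes with iron. Transcription enters through other routes, among them BMP-SMAD signalling to hepcidin, the heme-sensing repressor BACH1 and the antioxidant factor NRF2. The question put to these data is how large any difference in accessibility could be, at iron genes and over the genome.

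Promoter stretches of 5 iron genes are shown because their start regions carry the comparison described below: Tfrc and Fth1 are bound as messages by the IRPs, Tfr2 senses transferrin saturation, and Slc39a8 and Hpx had start regions with all 3 deleted libraries above all 3 floxed. Each run holds the 150 bases that end just before the transcription start (RefSeq, GRCm38.p6, read along the strand of the gene). Capitals mark whole matches to any of 5 motifs on either strand: TGACNNNGC (antioxidant response element core), TGANTCA (AP-1), TTCNNNGAA (STAT), GGCGCC (a BMP responsive element) and ACGTG (hypoxia response element core).
Tfrc: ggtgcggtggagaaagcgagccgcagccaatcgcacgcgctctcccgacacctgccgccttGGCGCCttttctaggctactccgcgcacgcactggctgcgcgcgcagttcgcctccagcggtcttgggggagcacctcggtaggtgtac
Fth1: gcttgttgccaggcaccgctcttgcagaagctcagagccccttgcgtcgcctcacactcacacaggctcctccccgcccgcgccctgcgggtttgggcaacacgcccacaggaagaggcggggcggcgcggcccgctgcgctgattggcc
Tfr2: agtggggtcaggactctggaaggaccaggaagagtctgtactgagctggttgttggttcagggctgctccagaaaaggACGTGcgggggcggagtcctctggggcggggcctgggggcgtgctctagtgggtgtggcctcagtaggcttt
Slc39a8: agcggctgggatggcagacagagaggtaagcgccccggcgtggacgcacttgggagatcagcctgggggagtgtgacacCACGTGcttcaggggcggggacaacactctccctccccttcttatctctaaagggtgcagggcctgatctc
Hpx: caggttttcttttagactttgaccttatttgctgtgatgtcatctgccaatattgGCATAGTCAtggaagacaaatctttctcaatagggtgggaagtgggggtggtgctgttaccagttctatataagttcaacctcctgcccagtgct
These stretches lie at chr16:32608746-32608895 (Tfrc, plus strand), chr19:9982496-9982645 (Fth1, plus), chr5:137569690-137569839 (Tfr2, plus), chr3:135825507-135825656 (Slc39a8, plus) and chr7:105600117-105600266 (Hpx, minus). Tfrc held GGCGCC, Tfr2 held ACGTG, and Slc39a8 held CACGTG, which reads as ACGTG on both strands. Hpx held GCATAGTCA, the antioxidant core read on the other strand, and Fth1 held none of the 5. The AP-1 and antioxidant patterns can overlap, as they do in the Hfe promoter. Among 32851 promoters of 300 bases in the RefSeq table (250 before and 50 after the start), 12.4% held the antioxidant core, 7.81% AP-1, 8.30% STAT, 11.9% GGCGCC and 19.6% ACGTG. Of the 62 iron and heme genes with a tested region at their start, 13 held the antioxidant core, 3 AP-1, 3 STAT, 16 GGCGCC and 16 ACGTG. A match is a string of letters and not evidence of a bound factor.

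Before any region was compared, 2 of the 3 Fbxl5-deleted libraries stood apart. The floxed libraries listed 151794, 145293 and 137004 peaks, and the deleted ones 261938, 151086 and 260515. Deleted libraries 1 and 3 therefore listed far more peaks than the other 4, while deleted library 2 lay inside the floxed range. Their surplus was of weak peaks: the share enriched at least 5-fold was 39.8%, 42.9% and 44.5% in floxed libraries against 16.8%, 39.8% and 20.7% in deleted ones. Peaks at that strength numbered 60348, 62308 and 60924 against 43981, 60191 and 53808, so all deleted libraries lay below all floxed ones. That difference of -8533 peaks had p = 0.1 in a two-sided exact permutation test, the smallest that 3 libraries against 3 can give (0.267 after Benjamini-Hochberg adjustment over 8 library measures). Read depth was not given in the peak lists, so its part in these differences was not tested. Because of these libraries the results at genes and lists are followed by their values without deleted 1 and 3, which leaves a single deleted mouse assumed to vary like the controls.

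**Figure D1:**
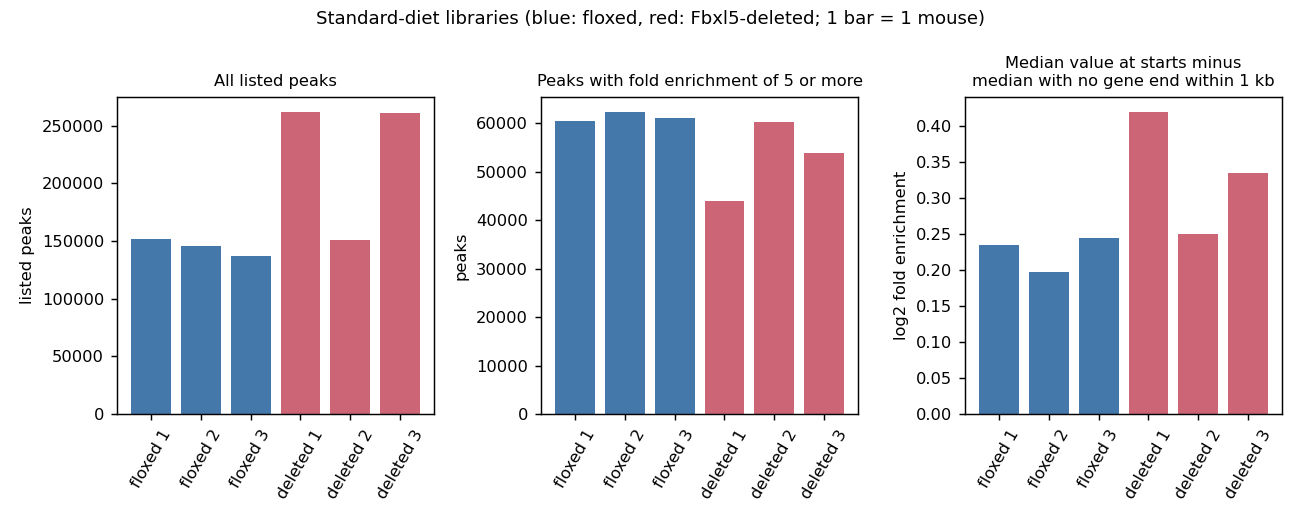
Listed peaks, peaks enriched at least 5-fold, and the median value at transcription starts minus that at regions with no gene end within 1 kb (log2), each bar being 1 standard-diet library (blue floxed, red Fbxl5-deleted). Deleted libraries 1 and 3 list 261938 and 260515 peaks and have the largest excess at starts, 0.42 and 0.33, against 0.20 to 0.25 in the other 4.

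Agreement of single libraries followed the same split. Over the tested regions the Spearman correlation between pairs of floxed libraries was 0.799 to 0.804. Deleted library 2 correlated with the floxed libraries at 0.810 to 0.813, as closely as those did with each other. Deleted libraries 1 and 3 correlated with them at 0.703 to 0.771. These correlations are over regions that share a library and are given as a description.

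At most measured regions the accessibility of the 2 genotypes differed by less than 2-fold. Of 44223 regions, 1 (0.00226%) passed the test, a fall, and no region rose (limma, adjusted p under 0.05). Unadjusted p-values under 0.05 were found at 3401 regions (7.69%), 1242 higher and 2159 lower in deleted libraries. No region passed without deleted 1 and 3, and 1925 (4.35%) had an unadjusted p under 0.05. Unranked fold enrichments shifted the median of all regions to -0.17, and their split at an unadjusted p under 0.05 was 60 higher and 3598 lower, with 0 called. Ranking by -log10 p called 5 regions, 2 higher (at Mylk and Alb) and 3 lower. For comparison, the DDC diet changed 1825 of the same regions (4.13%) between the floxed groups, again 3 libraries against 3. That comparison holds neither deleted 1 nor deleted 3. Its 95% intervals had a median half-width of 0.36 log2, against 0.41 for the genotypes, so the 2 counts differ in precision.

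The intervals give the size that remains possible. In 41212 regions (93.2%) the whole 95% interval of the difference lay inside -1 to 1 log2, and in 36.3% it lay inside -0.5 to 0.5. The median half-width was 0.41 log2, a factor of 1.33. A single region had its interval wholly outside -1 to 1. The count inside -1 to 1 was 36943 (83.5%) without deleted 1 and 3, and the median half-width 0.53 log2. Only 15.5% then lay inside -0.5 to 0.5, and 2 regions lay wholly outside -1 to 1. Point estimates ran from -1.56 to 1.41, with 59 regions below -1 and 14 above 1. Both extremes lay among the 4428 regions with a kept peak in just 3 of the 6 libraries. Such a region can enter through the libraries of 1 genotype alone, and then has to differ. With a kept peak in all 6 libraries the estimates ran from -0.99 to 0.80. The median difference over all regions was 0.02, and 0.01 without deleted 1 and 3.

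**Figure D2:**
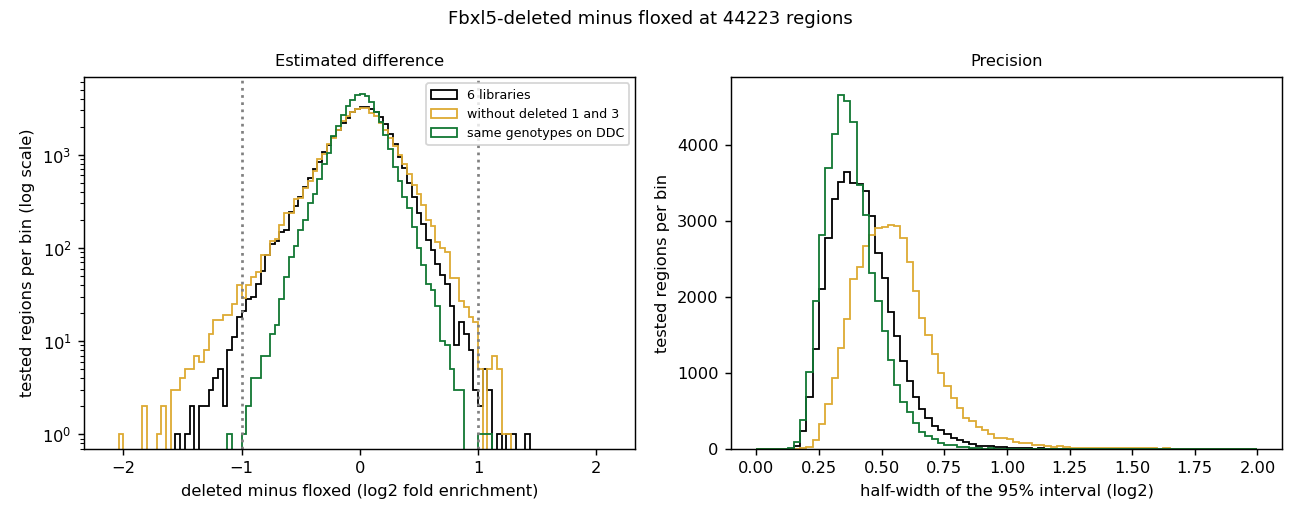
Left, estimated differences (deleted minus floxed, log2 fold enrichment, bins on a log count axis) for 6 libraries, without deleted 1 and 3, and for the same genotypes on DDC (12-library fit); right, half-widths of their 95% intervals. Dotted lines mark 1 log2 either way, and 93.2% of the intervals of the 6-library fit stay inside them.

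How tightly a difference was bounded depended on the strength of the peak. Regions were split into 4 equal classes by mean value. In the class with the highest values 99.8% of intervals lay inside -1 to 1, against 80.4% in the lowest. With deleted 1 and 3 left out these shares were 99.4% and 56.4%. Regions with a kept peak in all 6 libraries reached 99.5%, and those with one in just 3 reached 69.9%. At transcription starts the share was 98.5%, and at regions with no gene end within 1 kb it was 91.7%. Weak distal regions are thus where a 2-fold difference could go unseen.

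**Figure D3:**
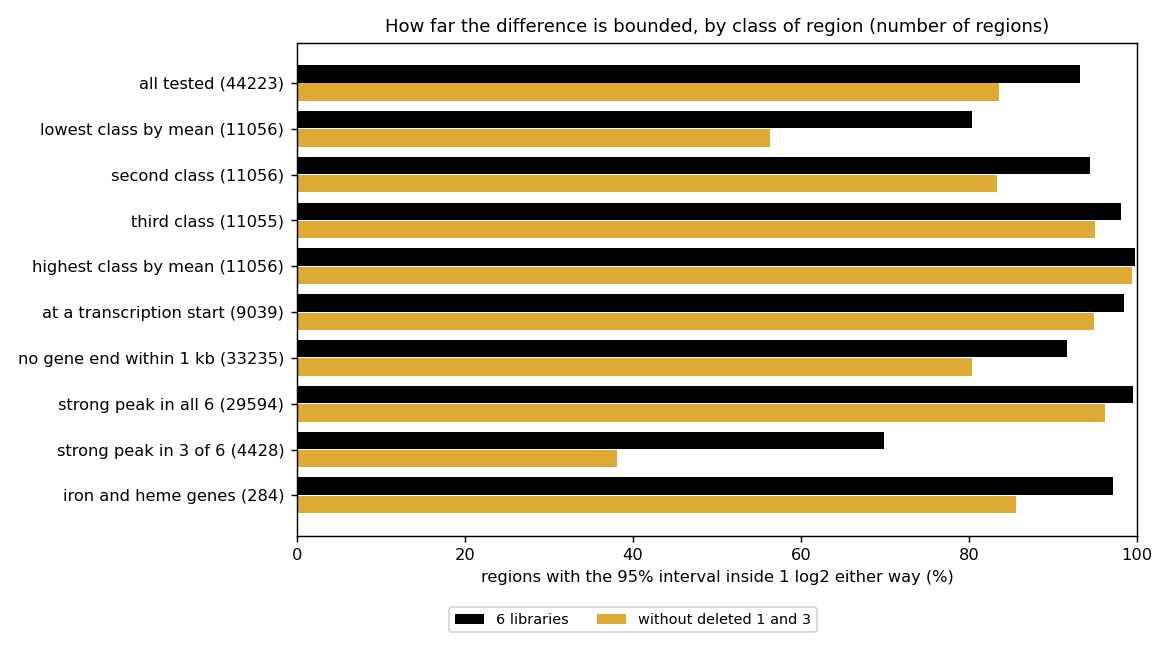
Percentage of regions whose 95% interval lies inside -1 to 1 log2, by class of region, with 6 libraries (black) and without deleted 1 and 3 (yellow); numbers of regions are in the labels. The share runs from 69.9% for regions with a kept peak in 3 of 6 libraries to 99.8% for the class with the highest mean values.

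The region that passed lies within Pappa2, which encodes pappalysin 2, a protease that cleaves insulin-like growth factor binding proteins. It spans chr1:158733314-158734088, inside the gene and 21.6 kb from its lower-numbered end. Its values were 3.83, 4.16 and 4.08 in floxed libraries and 2.40, 2.86 and 2.49 in deleted ones. The groups were far apart, the highest deleted library lying well under the lowest floxed one. The peak in the deposited lists had a fold enrichment of 14.3, 19.1 and 18.4 against 3.7, 8.0 and 5.1. The difference was -1.44 ± 0.18 (SE, n = 3 and 3), with a 95% interval of -1.83 to -1.05 (limma, adjusted p = 0.040). Without deleted 1 and 3 it was -1.13, with an interval of -1.56 to -0.70 (limma, adjusted p = 0.95), and the call was lost in 14 of 19 alternatives, among them leaving out any single library other than deleted 2. On DDC the difference at the region was 0.10, with an interval of -0.36 to 0.57, in mice that share no sample with the standard-diet comparison.

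Set against all 12 libraries, the Pappa2 region had its highest values in the floxed standard-diet group. The floxed DDC libraries read 2.23, 2.90 and 2.61 and the deleted DDC libraries 2.56, 3.14 and 2.36. So the 3 floxed standard-diet libraries lay above all other 9, which overlapped one another. Over all tested regions, 639 (1.44%) had the floxed standard-diet group above the other 9 libraries and 902 (2.04%) had the deleted standard-diet group above them. The Pappa2 region was picked for its difference between the standard-diet groups, which these shares do not take into account. The DDC groups also differ in diet, so which group departed from the rest was not tested.

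A further 6 falls with small p did not pass the test, their adjusted p-values being 0.18 to 0.31 (limma). A region near Snrk, which encodes a kinase, read 3.66, 3.54 and 3.72 in floxed and 2.40, 2.84 and 2.75 in deleted libraries, a difference of -0.98 ± 0.19. One near Mboat1, a lysophospholipid acyltransferase gene, read 3.89, 4.13 and 4.01 against 3.20, 3.12 and 2.75 (-0.98 ± 0.17). In Lhfpl2 the values were 4.09, 4.21 and 4.27 against 3.35, 3.55 and 2.56 (-1.04 ± 0.21). The groups did not overlap in any of these, which were picked for a small p between the same groups. Over all tested regions, all 3 deleted libraries lay below all 3 floxed ones at 2641 (5.97%). Regions in or near Cacna2d3 (a calcium channel subunit), Cnot10 (part of the CCR4-NOT deadenylase) and Wdr7 differed by -1.06 to -0.81. On DDC the differences at these 6 ran from -0.40 to -0.02, and the interval excluded 0 at Cnot10 alone (-0.76 to -0.04). They ran from -1.21 to -0.62 without deleted 1 and 3. At Mboat1, Snrk and Lhfpl2, as at Pappa2, the floxed standard-diet group lay above all other 9 libraries. Among the 8 falls with the smallest p this held at 5, and the deleted standard-diet group lay below all other 9 at 3. Over all tested regions that group lay below the other 9 at 560 (1.27%). All 8 falls were picked for their difference between the standard-diet groups, which the shares over all regions do not take into account. These counts therefore cannot show which group departed from the rest.

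No rise passed either, the 8 with the smallest p having adjusted p-values of 0.31 to 0.36 (limma). The first lies at an end of Mylk, the myosin light chain kinase gene (chr16:34744982-34745741), with values of 4.20, 4.10 and 4.27 in floxed and 4.82, 4.54 and 4.75 in deleted libraries. All deleted libraries were above all floxed ones, as at 7.28% of all tested regions, and the difference was 0.51 ± 0.10. It was 0.34 without deleted 1 and 3. On DDC it was 0.34 as well, with an interval of 0.14 to 0.53. The largest of the 8 was in Fmnl2, a formin gene, at 1.62, 2.18 and 1.96 against 3.51, 3.20 and 2.87 (1.27 ± 0.30). Its fold enrichments were 3.6, 5.3 and 4.3 in the floxed lists, under the strength kept there, so it entered through the deleted libraries and had to differ. On DDC it read 3.33, 3.36 and 3.46 in floxed and 2.85, 3.26 and 3.33 in deleted libraries, with no excess in the latter. Regions at Gpr142, Wdr7, Atg4c, Shq1, Ccdc82 and Shroom3 differed by 0.48 to 1.05. These 6 ran from 0.50 to 0.91 without deleted 1 and 3, and Fmnl2 was at 1.17.

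**Figure D4:**
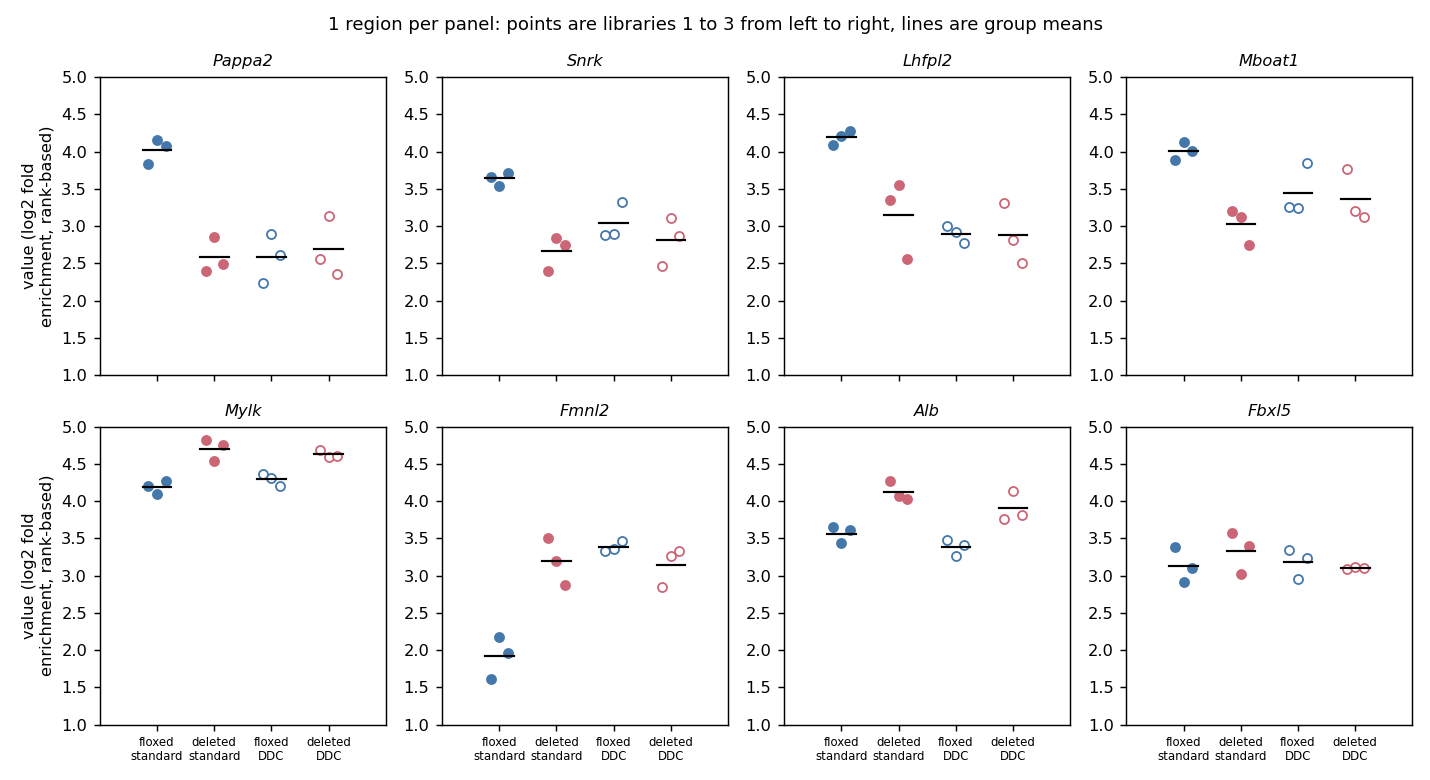
Value (rank-based log2 fold enrichment) of 8 regions in all 12 libraries, filled points on the standard diet and open points on DDC, blue floxed and red Fbxl5-deleted, with lines at group means. At Pappa2, Snrk, Lhfpl2 and Mboat1 the floxed standard-diet libraries lie above the other 9, and at Alb and Mylk the deleted libraries lie above the floxed ones on both diets.

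Of the 100 regions with the smallest p, 98 had no gene end within 1 kb, against 75.2% of all tested regions. At an unadjusted p under 0.05 the falls were more often distal and the rises more often at starts. Of the 2159 with an unadjusted p under 0.05 that were lower in deleted libraries, 5.65% were at a transcription start and 77.2% had a protein-coding gene within 50 kb, against 20.4% and 89.1% of all tested regions. Of the 1242 that were higher, 28.8% were at a start and 64.9% had no gene end within 1 kb. On DDC, 719 of those 1242 (57.9%) and 1297 of the 2159 (60.1%) had the same sign, against 53.6% of all regions. The medians on DDC were 0.03 and -0.05, where the standard-diet medians were 0.46 and -0.54. Among the 100 regions with the smallest p, 74 had the same sign on DDC. The median of these 100 was -0.12 on DDC and -0.88 on the standard diet.

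The targeted gene gave no check of the deletion. Fbxl5 (chr5:43744618-43782149) had its only tested region at an end of the gene, chr5:43781402-43782725. Its values were 3.38, 2.92 and 3.10 in floxed and 3.57, 3.02 and 3.40 in deleted libraries, which overlapped. The difference was 0.20 ± 0.20, with an interval of -0.23 to 0.62, and -0.11 without deleted 1 and 3. Which part of the gene is flanked by recombination sites is not stated in the labels, and the region may lie outside it. At the IRP genes, the start of Ireb2 differed by 0.06 (-0.30 to 0.42) and that of Aco1 by 0.20 (-0.13 to 0.53), and by 0.12 and 0.08 without deleted 1 and 3. A region 8190 bp from Aco1 read 3.66, 3.42 and 3.48 in floxed and 3.18, 2.64 and 3.36 in deleted libraries. There the deleted libraries were all lower, library 2 most, and the difference of -0.46 (-0.89 to -0.04; limma, adjusted p = 0.63) was -0.84 (-1.33 to -0.34) without deleted 1 and 3, and -0.15 on DDC. A region 19871 bp from Ireb2 differed by 0.25 (-0.03 to 0.53), and by 0.10 without them.

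Iron genes as a whole showed no region that passed. Of 97 genes in 7 iron and heme lists, 87 had a region assigned to them, 284 regions in all, of which 0 were called in either direction. At an unadjusted p under 0.05 there were 10 higher and 7 lower, 17 in all, beside the 7.69% found over all regions. The median difference was 0.06 (0.02 over all regions), 0.01 without deleted 1 and 3, and 0.01 on DDC. Unranked, the median was -0.12, above the -0.17 of all regions by 0.04, the same gap as in ranked values; with the number of listed peaks as a covariate the gap was 0.00. In 276 regions (97.2%, against 93.2% over all regions) the interval lay inside -1 to 1. In the other 8 it passed 1 log2 on one side, 5 downward and 3 upward, the limits reaching -1.20 near Abcg2 and 1.25 in Bmp6. The share inside was 85.6% without deleted 1 and 3.

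Taking 1 region per gene, at its start where one was known, 89 genes could be compared, as Nfs1 and Steap1 had start regions that had been assigned to a neighbouring gene. All 89 intervals lay inside -1 to 1, and 38 inside -0.5 to 0.5. The estimates ran from -0.24 at Hscb, in a region that also lies at a known start of Chek2, to 0.52 at Alas2. Without deleted 1 and 3, 85 of the 89 intervals lay inside -1 to 1, the limits reaching -1.16 at Fth1 and 1.23 at Alas2. Of the 62 regions at a transcription start, 49 (79.0%) had a positive difference, beside 69.9% of all 9039 start regions tested. In 16 (25.8%) all deleted libraries lay above all floxed ones, beside 12.4% of all start regions and 7.28% of all regions. All deleted libraries were below in 1 of the 62 (1.61%), beside 2.50% of all start regions and 5.97% of all regions. Without deleted 1 and 3 the positive share was 66.1%, beside 55.0% of all start regions, and on DDC 27 of the 62 were positive, beside 4519 of the 9039.

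**Figure D5:**
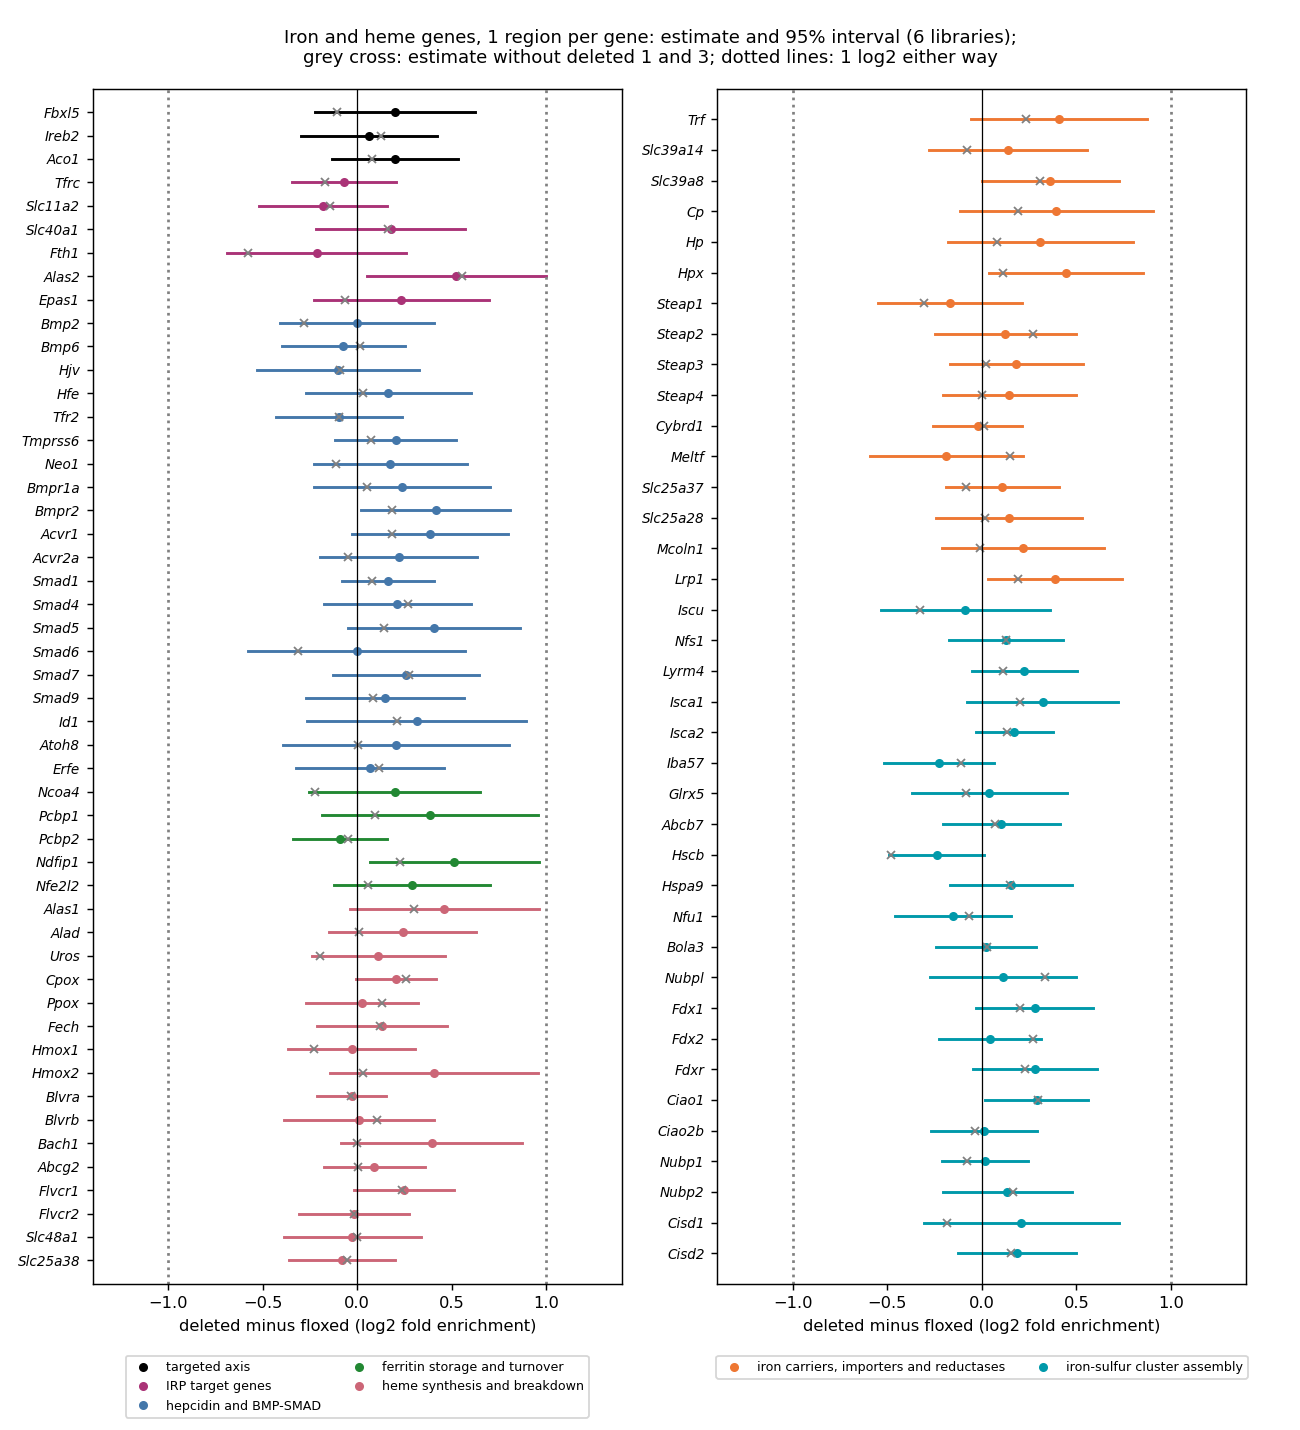
Deleted minus floxed difference (log2 fold enrichment) with its 95% interval for 1 region of each iron and heme gene (1 of the 89 is not shown), coloured by list; grey crosses are estimates without deleted 1 and 3. Every interval of the 6-library fit stays between the dotted lines at -1 and 1.

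Among genes whose messages the IRPs bind, Tfrc and Fth1 had a region at a known start, and both intervals included 0. Tfrc, the transferrin receptor that brings iron into the cell, read 3.91, 3.81 and 3.84 in floxed and 3.84, 3.68 and 3.83 in deleted libraries. The groups overlapped, and the difference of -0.07 had an interval of -0.35 to 0.21, and it was -0.17 without deleted 1 and 3. Fth1, the ferritin heavy chain, read 3.20, 3.01 and 2.97 against 3.04, 2.43 and 3.06 (-0.21, interval -0.69 to 0.26). Its lowest value was in deleted library 2, so that without the other two deleted libraries the estimate was -0.58 (-1.16 to 0.00). A second Fth1 region, 3135 bp from the gene, had the opposite sign, 0.42 (0.01 to 0.83; limma, adjusted p = 0.64), and 0.10 without deleted 1 and 3. At an end of Slc40a1, encoding the iron exporter ferroportin, the values were 3.11, 3.09 and 2.82 against 3.18, 3.18 and 3.20 (0.18, interval -0.22 to 0.57). There the deleted libraries were all above the floxed ones, by less than the interval can separate from 0, and the difference was 0.16 without deleted 1 and 3. Slc11a2, the divalent metal transporter, and Epas1, the hypoxia factor HIF-2 alpha, differed at a gene end by -0.18 and 0.23, and by -0.14 and -0.07 without deleted 1 and 3. Within Slc11a2 another region (chr15:100401639-100402370) read 3.04, 3.23 and 3.16 against 2.75, 2.87 and 2.41, all deleted libraries being lower (-0.47, interval -0.92 to -0.02; limma, adjusted p = 0.63). It was -0.26 without deleted 1 and 3, and 0.15 on DDC. Alas2, the erythroid form of the first heme enzyme, had the largest estimate of the group within the gene, 2.74, 2.25 and 2.77 against 2.98, 3.19 and 3.17 (0.52, interval 0.05 to 1.00; limma, adjusted p = 0.63), 0.55 without deleted 1 and 3, and on DDC -0.02. Over 26 regions of 6 genes in this list, 0 were called, and the median difference was 0.01, and -0.08 without deleted 1 and 3.

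The hepcidin pathway was measured mainly at its receptors and SMADs. Hamp, the gene for the iron hormone hepcidin, had no tested region: its strongest listed peak had a fold enrichment of 4.53, 3.55 and 5.78 in floxed and 4.38, 5.17 and 6.49 in deleted libraries, which overlapped. Deleted library 3 kept that peak and the other 5 did not, so the region fell short of the 3 libraries required. Bmp6, the iron-induced ligand, differed at its start by -0.07 (-0.40 to 0.25), and by 0.01 without deleted 1 and 3. The transferrin sensors and co-receptors gave -0.10 for Tfr2, 0.16 for Hfe and -0.10 for Hjv, and the protease gene Tmprss6, whose product removes hemojuvelin, gave 0.20. With deleted 1 and 3 left out these 4 values were -0.10, 0.03, -0.09 and 0.07. Type I and type II receptors had positive differences that did not pass the test. At the start of Bmpr2 the values were 3.08, 3.09 and 3.10 against 3.85, 3.28 and 3.38 (0.41, interval 0.02 to 0.81). The deleted libraries were all higher there, library 1 most of all, and without libraries 1 and 3 the difference was 0.19. Acvr1 differed by 0.39, Bmpr1a by 0.24 and Acvr2a by 0.22, which became 0.18, 0.05 and -0.05 without them. On DDC the 4 receptor genes Bmpr2, Acvr1, Bmpr1a and Acvr2a read -0.12, -0.10, -0.12 and -0.03. Of the SMADs, Smad1 differed by 0.16 at its start, Smad5 by 0.41, Smad4 by 0.21 and the inhibitory Smad6 and Smad7 by 0.00 and 0.26. The SMAD values in that order were 0.08, 0.14, 0.27, -0.31 and 0.27 without deleted 1 and 3. The smallest p in the list belonged to a distal region 34574 bp from Smad1, at 4.34, 4.47 and 4.19 against 3.89, 3.93 and 4.14, a difference of -0.35 ± 0.12 (limma, adjusted p = 0.54), and -0.40 without deleted 1 and 3. A region 12166 bp from Hjv followed, at -0.37 (-0.71 to -0.03), and -0.21 without them. Of 84 regions of 20 genes 0 were called, with a median of 0.08, 0.07 without deleted 1 and 3, and 0.01 on DDC.

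Of 16 carrier, importer and reductase genes, 13 had a positive difference at their region and 3 a negative one, and none passed the test. The positive share was 69.9% over all start regions and 53.3% over all tested regions. Without deleted 1 and 3, 11 of the 16 were positive, beside 55.0% of all start regions. On DDC 5 of the 16 were positive, beside 4519 of the 9039 start regions. Hpx, hemopexin, which binds free heme in plasma, read 2.92, 3.00 and 2.98 in floxed and 3.62, 3.09 and 3.54 in deleted libraries. All deleted libraries were higher, but library 2 by little: the difference of 0.45 (0.04 to 0.85) became 0.11 without the other two, and on DDC it was -0.05. Slc39a8, a zinc and iron importer of the ZIP family, read 3.15, 3.03 and 3.10 against 3.61, 3.41 and 3.35 (0.36, interval 0.00 to 0.73). This one kept 0.31 without deleted 1 and 3, and was 0.05 on DDC. Lrp1, the receptor that takes up heme bound to hemopexin, differed by 0.39 at its start, and the plasma carriers Trf (transferrin), Cp (ceruloplasmin) and Hp (haptoglobin) by 0.41, 0.39 and 0.31, none passing the test. These estimates were smaller without deleted 1 and 3, 0.19 at Lrp1, 0.24 at Trf, 0.19 at Cp and 0.08 at Hp. The strongest member of the list near its gene, a region 3133 bp from the ferric reductase gene Cybrd1, read 4.50, 4.54 and 4.46 against 4.24, 4.51 and 4.68 (-0.02, interval -0.26 to 0.21), and 0.01 without deleted 1 and 3. A second Cybrd1 region, 12459 bp away, read 4.17, 4.14 and 4.14 against 3.98, 3.64 and 3.79, with all deleted libraries lower (-0.35, interval -0.62 to -0.08), and -0.50 without deleted 1 and 3. The smallest p was at a region 27419 bp from Steap4, a metalloreductase gene, which differed by -0.38 ± 0.12 (limma, adjusted p = 0.50), and by -0.25 without them. Over 41 regions of 15 genes 0 were called, with a median of 0.10, and 0.00 without deleted 1 and 3.

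Over 27 regions of 6 ferritin storage and turnover genes 0 were called, with a median of -0.05 with and without deleted 1 and 3. Their median half-width was 0.45 log2, wider than the 0.41 over all regions. Ncoa4, the receptor that delivers ferritin for lysosomal breakdown, differed at its start by 0.20 (-0.26 to 0.65), and the iron chaperone genes Pcbp1 and Pcbp2 by 0.39 and -0.09. Nfe2l2, which encodes NRF2, differed by 0.29 at its start (-0.12 to 0.70), and by -0.24 on DDC. Without deleted 1 and 3 the values were -0.22 at Ncoa4, 0.09 at Pcbp1, -0.05 at Pcbp2 and 0.06 at Nfe2l2. Ndfip1, an adaptor for ubiquitin ligases, had values of 2.62, 2.86 and 2.71 against 3.55, 2.98 and 3.20 at a gene end, all deleted libraries being higher (0.51, interval 0.07 to 0.96; limma, adjusted p = 0.61). It was 0.23 without deleted 1 and 3. Ftl1, the ferritin light chain, had no tested region. In the iron-sulfur assembly list the median half-width over 52 regions was 0.34, the narrowest of the 7 iron and heme lists. The scaffold Iscu differed by -0.09, the sulfur donor Nfs1 by 0.13 and the late-acting Isca2 by 0.17 (-0.03 to 0.37). Iscu was at -0.33, Nfs1 at 0.13 and Isca2 at 0.13 without deleted 1 and 3. At the start of Ciao1, part of the cytosolic assembly machinery, the values were 3.66, 3.81 and 3.66 against 4.05, 4.02 and 3.93. All deleted libraries were higher, and the difference was 0.29 with all libraries and 0.30 without deleted 1 and 3, against -0.02 on DDC. The co-chaperone gene Hscb went the other way at a gene end, in a region that also lies at a known start of Chek2. Its values were 4.35, 4.44 and 4.38 against 4.29, 3.90 and 4.26 (-0.24, interval -0.49 to 0.01). Library 2 set most of that, since without libraries 1 and 3 it was -0.48. A region 14214 bp from Hspa9, a mitochondrial chaperone gene, differed by -0.25 (-0.50 to 0.00), and by -0.12 without them.

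Heme genes gave 0 called regions of 48, with a median of 0.05, and 0.01 without deleted 1 and 3. Alas1, the rate-limiting enzyme of hepatic heme synthesis, read 2.64, 2.45 and 2.68 in floxed and 2.77, 2.92 and 3.46 in deleted libraries at its start. The deleted libraries were all higher, library 3 by the most, and the difference of 0.46 had an interval of -0.04 to 0.96. It was 0.30 without deleted 1 and 3 and -0.12 on DDC. Alad, the second enzyme, differed by 0.24, Cpox by 0.21 (-0.01 to 0.42), Ppox by 0.03 and Fech, which inserts the iron, by 0.13. With the 2 libraries left out Alad was at 0.01, Cpox at 0.26, Ppox at 0.13 and Fech at 0.12. Hmox1, the inducible heme oxygenase, read 3.70, 3.82 and 3.49 against 3.85, 3.44 and 3.63 at a gene end, the groups overlapping (-0.03, interval -0.36 to 0.31), and -0.23 without deleted 1 and 3. A region 9448 bp from the gene was lower in all deleted libraries, 4.26, 4.49 and 4.17 against 3.92, 4.01 and 4.01 (-0.33, interval -0.58 to -0.08; limma, adjusted p = 0.55), and -0.30 without them. The repressor gene Bach1 differed by 0.39 at its start, with values of 2.70, 2.69 and 2.77 against 3.47, 2.72 and 3.15. Without deleted 1 and 3 nothing of that was left, the difference being 0.00 (-0.63 to 0.63).

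A shift at transcription starts accompanied these values. The 9039 start regions had a median difference of 0.09, and the 33235 regions with no gene end within 1 kb one of -0.01. The medians were 0.02 and 0.01 without deleted 1 and 3. Unranked, starts had a median of -0.09, still above the -0.17 of all regions, and with the number of listed peaks as a covariate they had 0.02. Per library, the median value at starts exceeded that of the latter regions by 0.23, 0.20 and 0.24 in floxed libraries and by 0.42, 0.25 and 0.33 in deleted ones. All deleted libraries were higher, those with many weak peaks most (difference 0.11, two-sided exact permutation test, p = 0.1, the smallest possible). Its part in the differences at iron gene starts was not tested. On DDC the median at starts was 0.00.

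Gene lists outside iron handling likewise held no called region, all compared with the background of 0.00226%. An unadjusted p under 0.05 was found at 7.69% of all tested regions, 1242 of them higher and 2159 lower. The 108 regions of 31 NRF2 antioxidant genes had a median of 0.04, with 3 higher and 1 lower at an unadjusted p under 0.05. The smallest p was in Abcc4, an organic anion exporter gene, with values of 3.59, 3.60 and 3.65 against 4.19, 3.86 and 4.02. Its difference was 0.41 ± 0.14 (limma, adjusted p = 0.53), with 0.24 without deleted 1 and 3 and -0.22 on DDC. The 38 ferroptosis regions had a median of -0.03, with 0 higher and 2 lower. Leading these was a region near Nox4, an oxidase gene, at -0.53, and -0.29 without deleted 1 and 3. Integrated stress response genes, which respond to heme and amino acid shortage, had the highest list median, 0.17 over 38 regions, and -0.02 without deleted 1 and 3. Hypoxia and metallothionein genes had 0.07 over 79 regions and -0.05 without them, and bile acid synthesis genes 0.13 over 39 and -0.06. In these 3 lists the median thus changed sign when the 2 libraries were left out. Unranked, all lists but integrated stress response (0.00) had a negative median, as had the whole table. Lists for bile acid transport, lipid metabolism, cell cycle and p53, AP-1 and inflammation had medians of 0.07, 0.08, 0.08, 0.04 and -0.01, and of 0.02, 0.03, 0.08, 0.03 and -0.01 without deleted 1 and 3.

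Peak heights at marker genes did not by themselves identify the cells. Hepatocyte markers had regions at 6 of 8 genes, and their median value per library was 3.12 to 3.18 in floxed and 3.14 to 3.29 in deleted libraries, below the 3.32 of all tested regions. Their median difference was 0.10, and -0.06 without deleted 1 and 3. Markers of 5 other cell types (cholangiocytes, macrophages, stellate cells, endothelial cells and lymphocytes) had regions at 28 of 48 genes, 79 regions in all. Of these, 1 was higher and 4 lower at an unadjusted p under 0.05. Over all tested regions 7.69% had such a p, 1242 of them higher and 2159 lower. Macrophage markers had the lowest median difference, -0.11 over 10 regions, with library medians of 3.68, 3.43 and 3.43 in floxed and 3.24, 3.30 and 3.05 in deleted libraries. The 3 deleted libraries were below the floxed ones there, and without deleted 1 and 3 the median difference was 0.01. Endothelial markers had library medians of 3.37 to 3.54 and a median difference of -0.03 over 27 regions, 3 of them lower at an unadjusted p under 0.05. Since an open region of a rare cell type and a weak region of the main type give the same peak height in bulk, cell numbers and accessibility per cell cannot be told apart. The part of such cells in any difference was not tested.

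At Alb, whose promoter drives Cre in the deleted mice, 1 of 6 assigned regions had an interval clear of 0 on both diets. It spans chr5:90449802-90450506, 10364 bp from the gene. It was picked out after its values were seen, having the smallest p of the hepatocyte list. Its values were 3.66, 3.43 and 3.61 in floxed and 4.28, 4.06 and 4.03 in deleted libraries. The groups did not overlap, and the difference was 0.56 ± 0.14 (limma, adjusted p = 0.37), and 0.49 without deleted 1 and 3. In the DDC mice, whose values did not enter that p, the values were 3.49, 3.26 and 3.41 against 3.76, 4.14 and 3.82. Again the deleted libraries were all higher, by 0.52 with an interval of 0.24 to 0.80. Averaged over both diets the difference was 0.54 (interval 0.34 to 0.74, limma adjusted p = 0.11) and did not pass. Regions in or near Mylk, Cnot10 and Elfn1, and others with no assigned gene, had a smaller p for that average. Over all tested regions, an unadjusted p under 0.05 was found at 7.69% on the standard diet and at 3.83% on DDC. The share of regions with an interval clear of 0 on both diets was not counted. When regions were ranked by -log10 p in place of fold enrichment the standard-diet difference at this Alb region passed (0.59, limma adjusted p = 0.0029). The neighbouring region at chr5:90447634-90448236 had negative differences on both diets, -0.30 (-0.64 to 0.05), -0.56 without deleted 1 and 3, and on DDC -0.49 (-0.85 to -0.14). The region at the Alb start differed by 0.44 (-0.11 to 1.00), by 0.42 without deleted 1 and 3 and on DDC by 0.16. Which albumin sequences the transgene carries was not given in the sources used here.

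On DDC the same genotype comparison at the same regions gave 0 called regions, with 1693 (3.83%) at an unadjusted p under 0.05. The difference between the 2 genotype effects was tested directly and passed at 0 regions, with 2501 (5.66%) at an unadjusted p under 0.05 (limma on 12 libraries). At Pappa2 it was 1.54, with an interval of 0.89 to 2.20 (limma, adjusted p = 0.71). No region could therefore be said to respond to the deletion in one diet and not in the other.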

How the data were processed

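ATAC-seq peak lists from hepatocytes of 12 mice (4 groups of 3) were used, the 6 standard-diet lists in the main comparison. Per the submitters' processing notes, the tools were MACS2, Bowtie2, fastp, Picard, SAMtools, deepTools and bedtools, with build mm10. Tool versions and settings were not given in the sources used here, nor was a transposase offset. The authors deposited 1 list per library, so peaks were not called on pooled replicates. The deposited fold enrichment is a ratio of peak height to background within a library, with no control library. The authors' lists also give a -log10 p, which served as an alternative and to break ties. The deposited -log10 q and score were left aside. Read counts are not in the lists, so depth is unknown and no counting interval is given.

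Lines with the same coordinates were joined, keeping the highest fold enrichment. Peaks were kept, merged (at least 1 bp shared) and filtered as the report states. A region took the highest fold enrichment of any listed peak overlapping it, was ranked within its library and was given the mean log2 value of that rank over the 6 libraries; a region with no listed peak took the lowest rank (3 to 116 per library). Differences were fitted with limma 3.58.1 in R 4.3.3 (lmFit, eBayes with trend and robust settings; two-sided, Benjamini-Hochberg over all 44223 regions, called at an adjusted p under 0.05). The procedure was tested on simulated data. The DDC comparison and the interaction used all 12 libraries and 4 group means. Library measures were compared by exact permutation. Data were handled in Python 3.11.15 with pandas 2.3.3 and numpy 2.4.6, and drawn with matplotlib 3.10.9.

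Regions went to the shortest protein-coding gene overlapped, otherwise the nearest within 50 kb. Named regions were, for each iron gene, that at its start (else a gene end, else the highest mean) and the 2 smallest p per iron list; the smallest p in each other list; and the 8 rises and 8 falls with the smallest p and a gene. The members, lists and rules were chosen with earlier results of these data known. Of 361 list genes, 3 symbols were not matched, and 2 iron genes were not analysed here. Among the regions this rule names, some are given in counts, ranges or figures alone, and 1 fall and 1 iron gene are not reported here. Alternatives covered the value, ranking, thresholds, overlap, weights, covariate, block and left-out libraries.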

Additional observations from a re-analysis of the deposited data

How the results depend on the processing

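Between genotypes, 1 region was called in the reported analysis, and the count changed with most settings: 3 when kept peaks alone gave values, 5 when regions were ranked by -log10 p, 2 with a fold enrichment of at least 10, and 0 with unranked values, with all deposited peaks, with regions kept in all 6 libraries, with 50% reciprocal overlap, with the number of listed peaks as a covariate, and with both deleted libraries 1 and 3 left out. Leaving out 1 library at a time gave 0 to 2 calls. It stayed at 1 with normal scores, no filter on regions, array weights, the average over both diets and 12 libraries in the fit, but with the average and with 12 libraries the called region was another, at chr2:19796755-19797252. On the log2 scale of the standard-diet settings the Pappa2 difference ran from -1.69 to -1.01, and its call was lost without each of 5 libraries in turn, all but deleted 2. Intervals inside -1 to 1 numbered 14226 of 14356 with a fold enrichment of at least 10, 66008 of 108301 with all deposited peaks, and 24878 of 44223 with 50% reciprocal overlap; leaving out 1 library gave 38133 to 40787, unranked values 36045 and the covariate 32723. Normal scores have no such scale and gave no bound. The cause of these changes was not tested.

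The labels do not say whether replicate numbers pair the mice. Deviations of same-numbered libraries from their group means correlated at 0.00, 0.02 and -0.02 on the standard diet. On DDC they correlated at 0.02, 0.07 and 0.07. Such values cannot settle whether the mice were paired. With a replicate block 0 regions were called and 41193 intervals lay inside -1 to 1. With deleted 1 and 3 left out, 2 library measures changed sign, the lowest kept fold enrichment to 0.112 from -0.890 and the share of kept peaks at starts to -0.020 percentage points from 0.598.

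Of 2495 values of 130 named regions under the alternatives, 2178 moved by less than 1 SD, 300 moved further, 14 lost the call at Pappa2 and 3 gained one; the 3 were Mylk, Lhfpl2 and Alb, ranked by -log10 p. Of 519 list medians 104 moved. The DDC comparison and the interaction had 0 calls in every setting run. Weak distal regions limit what can be seen, and depth is not known.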

Other observations

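With the genotype difference averaged over both diets, a contrast chosen after the data were seen, 1 of 44223 regions was called. It lies at chr2:19796755-19797252, has no protein-coding gene within 50 kb and was lower in deleted libraries by a difference of -0.70 (interval -0.90 to -0.51; limma, adjusted p = 0.024). The Mylk region followed with 0.43 (0.29 to 0.56; limma, adjusted p = 0.060). The chr2 region was also called with all 12 libraries in the standard-diet fit (-0.99, limma adjusted p = 0.027). On the standard diet it was called as well with kept peaks alone (-0.99, limma adjusted p = 0.032). With slightly other bounds it was called at a fold enrichment of at least 10 (-0.91, limma adjusted p = 0.031). Another fall, at chr5:39219536-39220289 and without an assigned gene, was called with kept peaks alone (-0.99) and when ranked by -log10 p (-0.76). Under the averaged contrast 44076 regions had an interval inside -1 to 1.

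Ftl1, the ferritin light chain gene, had weak peaks in all 6 standard-diet lists, with fold enrichments of 4.48, 4.36 and 4.56 in floxed and 3.53, 3.60 and 4.35 in deleted libraries. All deleted libraries were lower, but these values are not ranked and peaks of this strength were not compared between libraries. Hamp2 had 5.77, 4.02 and 3.32 against 3.79, 4.29 and 5.52, which overlapped. Urod, a heme synthesis gene whose peak was assigned to a neighbour, had 9.99, 14.0 and 14.4 against 10.9, 13.4 and 10.8.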
